A study of Homo sapiens with 31 samples.

Results

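Circular RNAs (circRNAs) of the kinesin, dynein and myosin motor genes were examined in human ES cells differentiated towards retina. A circRNA forms when the 3' end of an exon is spliced back to the 5' end of the same or an upstream exon, and it is counted by the reads that cross this back-splice junction. Motor circRNAs were those named after a transcript that GENCODE assigns to a gene whose symbol is KIF, DNAH, MYO or MYH followed by a number, or begins with DYNC. There were 869 of them among 55371 circRNAs, from 73 genes, and they held 10116 of 1029205 back-splice reads. Of the 869, 374 rested on 1 read and 149 had a read at day 0. 140 circRNAs and 47 genes reached 10 reads over the 15 libraries and were tested, and the other 729 circRNAs held 1679 reads between them. A further 156 circRNAs with 1419 reads lay on exon ends of motor genes but were named after transcripts absent from the annotation used, and were not counted as members.

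Total RNA depleted of ribosomal RNA was sequenced from the human ES cell line H9, with 3 replicate cultures per group. The day 0 cells were undifferentiated, and the day 45 and day 90 cells were differentiated towards retina without IGF-1 (control) or with it. IGF-1, a growth factor, was given at 5 ng/ml up to day 37 and at 10 ng/ml afterwards. All groups came from this 1 line, and the cells were collected with no physical picking of embryoid bodies. RNA integrity numbers ran from 9.8 to 10 at day 0, from 7.6 to 9.1 at day 45 and from 7.1 to 8.9 at day 90, so RNA quality and day of differentiation cannot be told apart. In such bulk samples, fewer cells of a type and less RNA per cell cannot be told apart either.

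Kinesins and dyneins hydrolyse ATP to walk along microtubules, most kinesins towards the plus end and dyneins towards the minus end, while myosins move along actin filaments. Some kinesins build and elongate the mitotic spindle and others carry vesicles and organelles along axons. Cytoplasmic dynein 1 carries cargo back towards the cell body, dynein 2 works inside the primary cilium from which the photoreceptor outer segment is built, and axonemal dyneins drive the beat of motile cilia.

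The junctions of the motor circRNAs that the results turn on are given first, because the back-splice junction is the part of a circle's sequence that its linear RNA lacks. Each line runs 5' to 3' in the sense of the gene, with the last 20 bases of the donor exon in lower case and the first 20 bases of the acceptor exon in capitals, as read from GRCh37, whose coordinates are those of hg19. Exons are numbered in the Ensembl canonical transcript.
DNAH14 exons 2 to 8: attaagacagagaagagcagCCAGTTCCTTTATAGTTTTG
DNAH14 exons 2 to 10: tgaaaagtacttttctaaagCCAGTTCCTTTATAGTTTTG
DNAH14 exons 2 to 7: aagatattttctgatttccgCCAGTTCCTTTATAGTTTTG
MYO10 exons 5 to 9: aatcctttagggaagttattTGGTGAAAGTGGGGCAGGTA
MYH10 exons 5 to 7: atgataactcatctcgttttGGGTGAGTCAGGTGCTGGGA
DYNC1LI1 exons 3 to 5: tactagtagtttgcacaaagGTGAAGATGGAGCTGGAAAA
MYO9A exon 2: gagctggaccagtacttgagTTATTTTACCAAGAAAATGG
MYO9B exon 2: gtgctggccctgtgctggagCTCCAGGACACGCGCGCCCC
MYO16 exon 2: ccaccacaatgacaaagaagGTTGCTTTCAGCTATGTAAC
KIF1B exons 36 to 37: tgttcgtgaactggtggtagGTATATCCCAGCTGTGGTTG
KIF11 exons 15 to 17: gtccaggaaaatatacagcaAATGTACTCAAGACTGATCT
The first 3 circles share 1 acceptor, the start of DNAH14 exon 2, and differ in their donor. The capitals of MYO10, MYH10 and DYNC1LI1 open at the codons of the P-loop, the phosphate-binding loop of nucleotide-binding proteins, which is described below.

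The circles lie at these positions on hg19. A back-splice read shows only the donor and the acceptor, so the exons and bases inside each circle are those of the annotated transcript. DNAH14 is on the plus strand of chromosome 1, and its circles start at 225140372 and end at 225161855 (exons 2 to 8, 794 bases of exon), 225195246 (exons 2 to 10, 1140 bases) and 225156576 (exons 2 to 7, 731 bases). MYO10 exons 5 to 9 span chr5:16779654-16783578 on the minus strand and hold 463 bases, all coding. MYH10 exons 5 to 7 span chr17:8473038-8480656 on the minus strand, with 223 coding bases. DYNC1LI1 exons 3 to 5 span chr3:32582529-32587457 on the minus strand, with 518 coding bases. MYO9A exon 2 is chr15:72338065-72338975 on the minus strand and MYO9B exon 2 is chr19:17212470-17213367 on the plus strand. MYO16 exon 2 is chr13:109318234-109318497 on the plus strand, 264 bases long. KIF1B exons 36 to 37 span chr1:10407819-10408791 on the plus strand (152 coding bases), and KIF11 exons 15 to 17 span chr10:94396941-94399657 on the plus strand (392 coding bases).

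The circle of DYNC1H1 exons 63 and 64 is short enough to be shown whole. It spans chr14:102506573-102507010 on the plus strand, its exons of 175 and 76 bases flank an intron of 187 bases, and all 251 bases are coding. Exon 63 is in lower case and exon 64 in capitals, and the back-splice joins the last base to the first.
DYNC1H1 exons 63 to 64: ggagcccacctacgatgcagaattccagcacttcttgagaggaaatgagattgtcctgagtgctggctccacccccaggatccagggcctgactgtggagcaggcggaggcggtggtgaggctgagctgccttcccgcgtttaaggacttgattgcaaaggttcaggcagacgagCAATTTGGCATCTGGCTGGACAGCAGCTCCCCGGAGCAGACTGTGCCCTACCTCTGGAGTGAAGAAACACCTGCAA
Removal of the intron was taken from the annotation and was not observed. Without the intron, the length leaves a remainder of 2 on division by 3, so the reading frame would not close around such a circle.

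The libraries held 14992 to 17929 back-splice reads at day 0 and 42858 to 108946 later, of which motor circRNAs took 168 to 177 and 420 to 966. Levels are given as back-splice reads per 1000000 sequenced reads of the library (RPM). Since every read of a circRNA comes from its 1 junction, RPM was not divided by the length of the circle or the gene. Gene levels are sums over junctions, whose number differs between genes. Whether all junctions are detected equally well was not checked. A count of 0 in the 3 day 0 libraries allows up to 0.00737 RPM, taking 3 counts as the limit, and such limits cover counting error only. Among the later libraries, replicate 1 of the day 90 controls was the shallowest, at 42858 reads. Of 12 pluripotency genes 6 had back-splice reads, 13 in all, while POU5F1 and NANOG had none; of 17 retina genes 6 had reads, none of them at day 0, while CRX, RCVRN, RAX and OTX2 had none in any library. Back-splice counts of a marker gene are not its expression, so the labelled cell types were not checked beyond this.

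The level of motor circRNAs was higher after differentiation than at day 0, as was that of back-splice reads as a whole. All back-splice reads had means of 118 RPM at day 0 and 747 RPM in day 45 controls. Motor circRNAs had 1.42, 1.21 and 1.20 RPM in the day 0 libraries and 8.13, 6.50 and 6.24 RPM in the day 45 control libraries. Every day 45 library stood above every day 0 library. The means of motor circRNAs were 1.28 ± 0.124 and 6.96 ± 1.02 RPM (SD, n = 3), a ratio of 5.46 (two-sided exact permutation test, p = 0.1, the smallest that 3 against 3 allows). Within replicate numbers the ratio was 5.74, 5.38 and 5.21. The level was 6.02 ± 0.904 RPM with IGF-1 at day 45, 4.85 ± 1.67 RPM in day 90 controls and 5.75 ± 1.15 RPM with IGF-1 at day 90, where day 90 control replicates 1 and 2 were both scaled by their mean read number. All 12 later libraries stood above the day 0 libraries, with a ratio of 4.62 (exact permutation test, p = 0.0044, the smallest that 3 against 12 allows). Day 45 and day 90 controls overlapped (exact p = 0.2), as did the groups with and without IGF-1 (exact p = 0.4 at day 45 and 0.6 at day 90).

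Relative to other circRNAs, motor circRNAs took a share near 1% throughout. They held 1.18, 1.14 and 0.937% of back-splice reads at day 0, and 0.827, 1.00 and 1.03% in day 45 controls, and these ranges overlapped. The mean difference was -0.134 percentage points (exact permutation test, p = 0.3), and it became 0.0129 once the DNAH14 circle of exons 2 to 8 was left out. Against all 12 later libraries the difference was -0.106 points, with overlapping ranges (exact permutation test, p = 0.0484). The number of motor circRNAs found in a library was 67.3 ± 8.02 at day 0, 233 ± 5 in day 45 controls and 177 ± 41.2 in day 90 controls (SD, n = 3). This number depends on the motor reads sampled, 168 to 177, 900 to 915 and 420 to 966 in these groups. It is therefore no measure of diversity, and it was not set against the number of all circRNAs found. DNAH14 made up 37.3, 44.2 and 32.7% of motor reads at day 0 and 14.1, 21.2 and 19.8% in day 45 controls, which did not overlap (exact p = 0.1, the smallest possible).

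**Figure D1:**
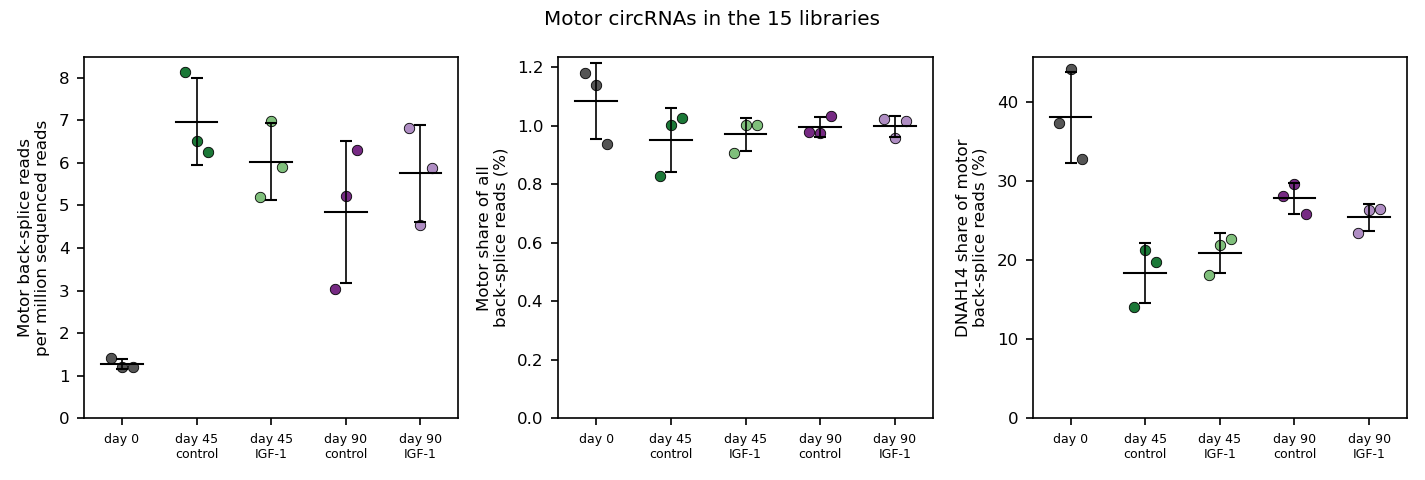
Motor circRNAs in each of the 15 libraries, as back-splice reads per 1000000 sequenced reads (left), as percent of all back-splice reads (middle), and with the share of DNAH14 among them in percent (right). Points are libraries, bars are means and whiskers are SD over 3 replicates; all later libraries lie above 3 RPM against 1.20 to 1.42 RPM at day 0, while the share stays between 0.827 and 1.18%.

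Motor reads were concentrated on a few circles. The 12 most abundant motor circRNAs held 4608 of the 10116 reads, and 12 circRNAs were found in all 15 libraries. DNAH14 led with 2393 reads over 87 circRNAs, followed by DYNC1H1 (1167 over 60), MYO9A (775 over 24), MYO10 (660 over 28) and KIF1B (474 over 50). Splice sites were reused: 189 of 467 acceptors and 198 of 502 donors served more than 1 motor circRNA. The exon 2 acceptor of DNAH14 served 6 circRNAs and 81.9% of the gene's reads, that of MYO16 7 circRNAs and 92.4%, and that of MYO9A 9 circRNAs and 58.3%. In contrast, DYNC1H1 had 82.8% of its reads on the circle of exons 63 and 64, and MYO10 had 81.2% on exons 5 to 9. KIF1B was spread widely, and its leading circle of exons 36 and 37 held 17.1% of its reads.

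**Figure D2:**
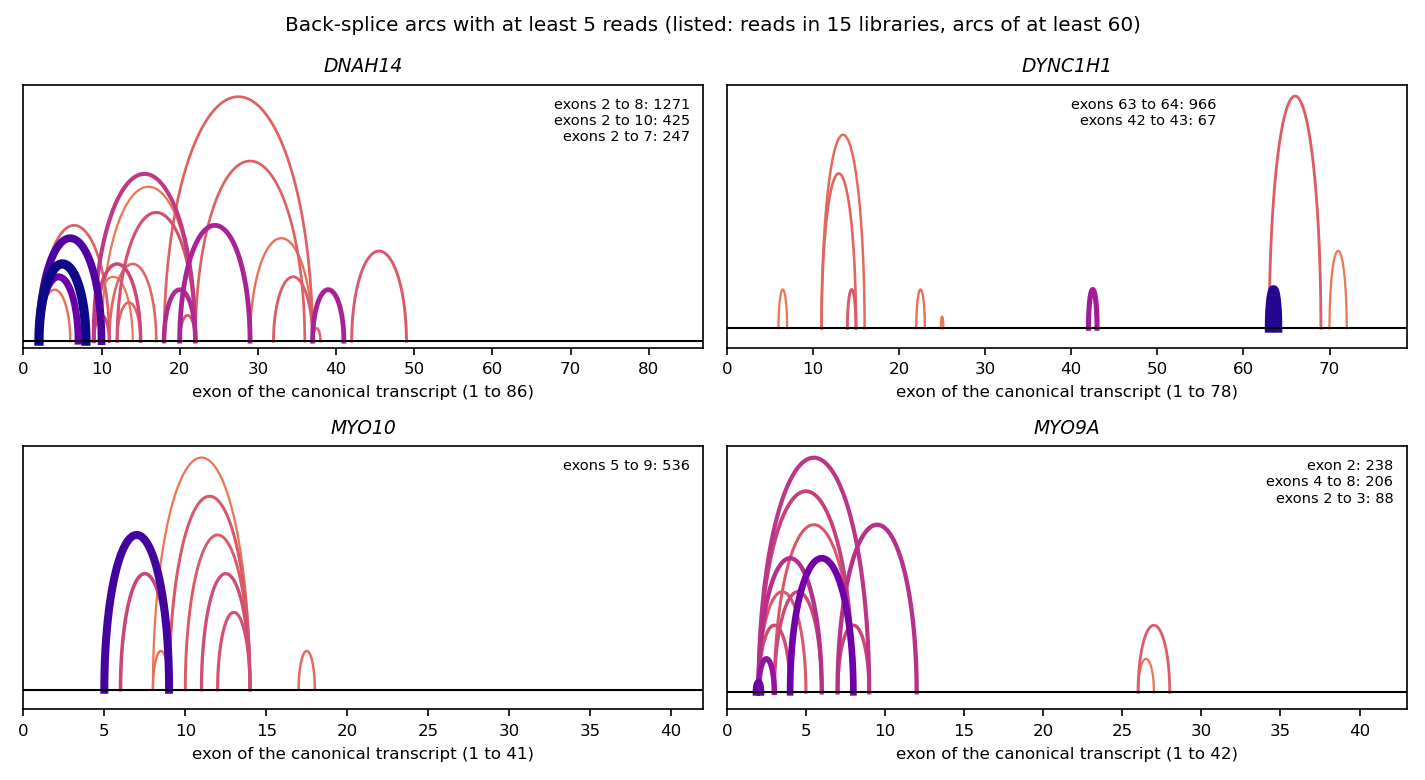
Back-splices of DNAH14, DYNC1H1, MYO10 and MYO9A with at least 5 reads, drawn as arcs from the acceptor exon to the donor exon along the exons of the canonical transcript. Thicker and darker arcs have more reads, those of at least 60 reads are listed, and arc height only follows the number of exons spanned (single exons are drawn with a small fixed width). DNAH14 arcs gather on exon 2 and 82.8% of DYNC1H1 reads lie on the circle of exons 63 to 64.

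Reads were screened against annotated transcripts, and 868 of 869 motor circRNAs lay on exon ends of their transcript. The bases flanking the exons are therefore largely set by the annotation and say little about the circles themselves. These bases were AG and GT for 862 of 869 motor circRNAs (99.2%, against 99.2% of the others), and for all 140 that were tested. By the annotated exons between donor and acceptor, motor circRNAs held a median of 5 exons against 4 in other circRNAs. The median exonic length was 660.5 bases against 510, and 27 were circles of 1 exon. The acceptor was the second exon of the transcript in 11.9% of motor circRNAs and 22.1% of other circRNAs, although these second-exon circles held 33.6% and 37.0% of the reads. The genes are not independent draws, and these are descriptions.

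The P-loop was searched for in the coding sequence of the canonical transcripts of 56 kinesin, myosin and dynein light intermediate chain genes, after the junctions above had been seen, and was found by its consensus in 49. In 13 of these, 10 of them myosins, an exon starts within 3 bases of the loop's first base. That exon was the acceptor of 15 of the 130 circRNAs of these 13 genes. The 15 came from 6 genes and held 924 of the 1750 reads of the 13 genes (52.8%). Dynein heavy chains were not searched. In MYO10 and MYH10 exon 5 starts 1 base before the loop, so that the circle holds all 24 bases of it just downstream of the back-splice. In DYNC1LI1 exon 3 starts inside the loop's first codon and the circle holds 23 of 24 bases. MYO10 had 542 reads on this acceptor, DYNC1LI1 had 291 and MYH10 had 83, so nearly all of the 924 reads came from these genes. DYNC1LI2, whose exon 3 starts inside the loop as in DYNC1LI1, had 1 of its 139 reads there. KIF15 had 5 of 235 and MYO1D 2 of 40, while MYH9, with the exon arrangement of MYH10, had none. The circles of MYO9A and MYO9B exon 2 correspond between these paralogues. Both hold 840 coding bases and begin the coding sequence with the start codon, and 519 of 850 aligned positions are identical (61.1%).

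For the comparison of day 0 with day 45, which asks how circRNAs change on differentiation, back-splice reads were summed per gene and tested with edgeR's quasi-likelihood test, with sequenced reads as library sizes and Benjamini-Hochberg adjustment over all 4616 genes tested. Of 47 motor genes 28 were higher in day 45 controls at an adjusted p under 0.05 and 0 were lower. Over all genes tested 61.9% were called higher, so 28 of 47 is near the background. The median log2 change was 2.80 for motor genes and 2.77 for all genes. For 25 of 47 motor genes every day 45 control library stood above every day 0 library, as for 62.2% of all genes. To compare genes with one another, the same counts were scaled to back-splice reads by TMM, which took the median of all genes from 2.77 to 0.82, and by DESeq2 size factors, which took it to 0.27. Under TMM, 6 motor genes were higher (DYNC1H1, DYNC1LI1, DYNC2LI1, DNAH7, KIF1B and MYO16) and 3 were lower (DNAH14, KIF11 and KIF4A), against 10.8% and 3.16% of all genes. Under DESeq2, KIF1B, MYO16, DNAH7 and DYNC2LI1 were higher, and DNAH14, KIF11, KIF4A and KIF14 were lower, against 7.0% and 5.42% of all genes. A rise below is a rise relative to sequenced reads unless a scaling is named.

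At day 90 the picture was similar. Against day 0, 22 of 47 motor genes were higher in day 90 controls and 0 lower, with 43.4% of all genes called higher, and the median log2 change was 2.40 for motor genes and 2.14 for all genes. For 22 motor genes the groups did not overlap, as for 47.3% of all genes. Over all genes 0.39% were lower at day 45 and 0.672% at day 90. Both comparisons use the same day 0 libraries. Under TMM, 7 motor genes were higher (those of day 45 and MYO10) and KIF11 and KIF18A were lower, against 10.8% and 3.49% of all genes. Under DESeq2 4 were higher and 6 lower, the latter being KIF4A, KIF11, KIF14, KIF15, KIF18A and DNAH5, against 7.26% and 5.55%.

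**Figure D3:**
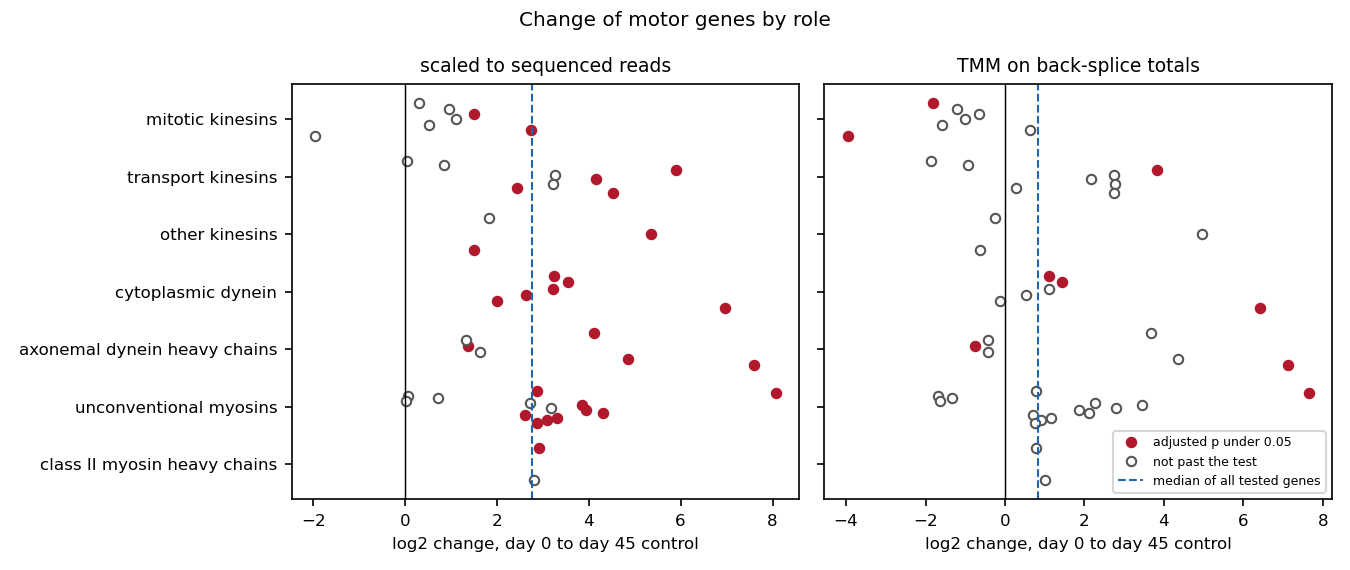
Log2 change from day 0 to day 45 controls of the tested motor genes, by role, with libraries scaled to sequenced reads (left) or by TMM on back-splice totals (right). Each point is a gene, filled where the adjusted p was under 0.05, and the dashed line is the median of all tested genes (2.77 and 0.82); all 7 mitotic kinesins lie to its left in both panels, KIF23 closest to it at 2.74 and 0.62.

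All tested cytoplasmic dynein genes were higher at day 45. Of 9 listed subunit genes 7 had back-splice reads, and 6 of 6 tested were higher, against 61.9% of all genes, while 3 were higher under TMM and 1 under DESeq2. They had a summed level of 0.199 RPM at day 0 and 1.75 RPM in day 45 controls, a ratio of 8.79. DYNC1H1, the heavy chain that carries the motor domain of dynein 1, had 11, 6 and 18 reads at day 0, 110, 95 and 116 in day 45 controls, 82, 121 and 106 with IGF-1 at day 45, 45, 59 and 119 in day 90 controls, and 113, 48 and 118 with IGF-1 at day 90. Every later library exceeded the day 0 libraries, and the later groups overlapped one another. The level went from 0.0862 ± 0.0431 to 0.824 ± 0.156 RPM (SD, n = 3), a log2 change of 3.24 ± 0.45 (SE, edgeR adjusted p = 7.38e-12), and it stayed higher under TMM (1.10, adjusted p = 0.0145) but not past the threshold under DESeq2 (0.78, adjusted p = 0.0889). Most of this lay in the circle of exons 63 and 64, with 8, 6 and 18 reads at day 0 and 87, 76 and 96 in day 45 controls. A second circle, exons 42 and 43, had no day 0 read, 9, 8 and 7 reads in day 45 controls and 3, 0 and 3 in day 90 controls, and was at least 8.23-fold higher at day 45.

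DYNC1LI1, the light intermediate chain that links dynein 1 to cargo adaptors, had 2, 3 and 4 reads at day 0 and 37, 33 and 35 in day 45 controls, which do not overlap (log2 change 3.56 ± 0.57, adjusted p = 4.89e-09, and 1.43 under TMM, adjusted p = 0.0315). Its paralogue DYNC1LI2 went from 1, 0 and 4 to 22, 9 and 16 reads (3.23 ± 0.72, adjusted p = 3.35e-05). These subunits of dynein 1 thus showed log2 changes between 3.23 and 3.56.

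Dynein 2, the ciliary form, was read from 3 subunits, each higher at day 45. Its heavy chain DYNC2H1 had 4, 6 and 7 reads at day 0 and 27, 35 and 42 in day 45 controls (log2 change 2.63 ± 0.52, adjusted p = 2.16e-06). DYNC2LI1, its light intermediate chain, had no read in the day 0 libraries, and 19, 14 and 11 in day 45 controls, at least 15.1-fold higher. It had 5, 8 and 20 reads in day 90 controls, and it was higher at day 45 under TMM (adjusted p = 0.00318) and DESeq2 (adjusted p = 0.0149) as well. The intermediate chain DYNC2I1 had 7, 6 and 2 reads at day 0, 19, 13 and 28 in day 45 controls and 6, 11 and 16 in day 90 controls. It was higher at day 45 (log2 change 2.01 ± 0.57, adjusted p = 0.00127), where its change was -0.11 under TMM, and its change to day 90 was 1.02 (adjusted p = 0.151), or -0.55 under TMM.

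Axonemal dynein heavy chains, which power motile cilia, were dominated by DNAH14. Of 13 listed genes 11 had reads and 6 were tested, of which 4 were higher at day 45 (DNAH14, DNAH7, DNAH6 and DNAH10) and 2 at day 90 (DNAH14 and DNAH7), against 61.9% and 43.4% of all genes. DNAH14 was the most abundant motor gene in every group, with 66, 76 and 55 reads at day 0, 127, 191 and 181 in day 45 controls, 99, 205 and 188 with IGF-1 at day 45, 118, 214 and 249 in day 90 controls, and 212, 185 and 227 with IGF-1 at day 90. Every later library was higher than the day 0 libraries. Its level of 0.485 ± 0.0804 RPM at day 0 became 1.25 ± 0.118 RPM in day 45 controls and 1.34 ± 0.425 RPM in day 90 controls (SD, n = 3). The log2 change to day 45 was 1.37 ± 0.38 (adjusted p = 0.000895), below the median of all genes, and it reversed to -0.76 under TMM (adjusted p = 0.0299) and -1.08 under DESeq2 (adjusted p = 0.00017). To day 90 it was 1.47 ± 0.38 (adjusted p = 0.000582), with -0.12 under TMM and -0.40 under DESeq2.

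The DNAH14 circles that share the exon 2 acceptor changed by different amounts. The circle of exons 2 to 8 had 34, 50 and 25 reads at day 0 and 65, 96 and 81 in day 45 controls (log2 change 1.19 ± 0.42, adjusted p = 0.0158, or 0.0893 without day 0 replicate 3, and -0.56 under TMM and -1.15 under DESeq2). That of exons 2 to 10 had 6, 8 and 9 and then 20, 30 and 31 reads (1.84 ± 0.51, adjusted p = 0.00202, with 0.12 under TMM and -0.47 under DESeq2), and that of exons 2 to 7 had 17, 13 and 4 and then 15, 20 and 12 reads, which overlap (0.50 ± 0.52, adjusted p = 0.403, with -1.25 under TMM and -1.85 under DESeq2). Differences between these circles were not tested.

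DNAH7, an inner arm heavy chain, had no read at day 0, 15, 33 and 22 in day 45 controls, 2, 12 and 15 with IGF-1 at day 45, 14, 10 and 22 in day 90 controls, and 38, 17 and 16 with IGF-1 at day 90. It was at least 24.02-fold higher at day 45 and at least 14.5-fold higher at day 90, and was called higher under all 3 scalings. DNAH5, of the outer arm, had 1, 5 and 0 reads at day 0, 3, 6 and 10 in day 45 controls and 0, 2 and 0 in day 90 controls, with overlapping groups and no call. Of 28 other gene symbols listed for the axoneme 18 had reads and 10 were tested, of which 9 were higher at day 45, against 61.9% of all genes. Under TMM 4 were higher, and under DESeq2 3 were higher and 1 lower. They include SPAG16, a central apparatus protein, with 70 reads over the day 0 libraries and 175 over day 45 controls (log2 change 1.42, adjusted p = 0.00232, with -0.84 under TMM and -1.17 under DESeq2). The ciliogenesis factor FOXJ1 and 9 other symbols of the list had no back-splice read, among them ARMC4 and ODAD2, which name the same gene.

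Transport kinesins had few reads at day 0. The summed level of the 15 listed genes was 0.0594 RPM at day 0 and 0.755 RPM in day 45 controls, a ratio of 12.7, and 4 of 8 tested genes were higher at day 45 (KIF1B, KIF5B, KIF5C and KIF3A), against 61.9% of all genes. Under TMM and under DESeq2 1 of the 8, KIF1B, was higher. KIF1B alone gave 0.00534 RPM of the summed level at day 0 and 0.351 RPM of that in day 45 controls, so the ratio leans on this gene. KIF1B, which carries mitochondria and synaptic vesicle precursors, had 2, 0 and 0 reads at day 0, 67, 31 and 33 in day 45 controls, 35, 59 and 45 with IGF-1 at day 45, 13, 34 and 54 in day 90 controls, and 41, 32 and 28 with IGF-1 at day 90. The groups before and after differentiation are far apart, and replicate 1 was the highest of the day 45 controls. The ratio to day 45 was 67.4 (95% counting interval 18.3 to 563), with an adjusted p of 2.18e-15. Both day 0 reads lay in replicate 1, and the fitted log2 change of 5.89 became 8.58 without that library and 5.27 without day 45 control replicate 1. The change was called under TMM (log2 3.81) and DESeq2 (log2 3.57) too. Of its 10 tested circRNAs, none of which had a day 0 read, 6 were higher at day 45. The circle of exons 36 and 37 had 15, 5 and 4 reads in day 45 controls and was at least 8.23-fold higher.

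The conventional kinesins KIF5B and KIF5C, which carry cargo towards axon tips, were both higher at day 45, and a difference between them was not tested. KIF5B, expressed widely, had 7, 5 and 3 reads at day 0, 34, 18 and 27 in day 45 controls, 5, 11 and 13 in day 90 controls and 28, 28 and 26 with IGF-1 at day 90. It was higher at day 45 (log2 change 2.44 ± 0.55, adjusted p = 3.31e-05, with 0.27 under TMM and -0.06 under DESeq2) but not at day 90, where the groups overlapped (0.84 ± 0.59, adjusted p = 0.235, with -0.72 under TMM and -1.01 under DESeq2). KIF5C, the neuronal form, had 0, 1 and 0 reads at day 0 and 4, 11 and 16 in day 45 controls, a ratio of 31.9 (counting interval 5.32 to 1300, edgeR adjusted p = 5.41e-05). It had 7, 4 and 2 reads in day 90 controls and was called higher there too (adjusted p = 0.0153), a call lost without day 0 replicate 1 or 3 or day 90 control replicate 1 (adjusted p = 0.0599, 0.0638 and 0.0719). Neither change of KIF5C was called under TMM or DESeq2. KIF3A, a subunit of the kinesin of intraflagellar transport, was uneven, with 15, 1 and 6 reads in day 45 controls against 0, 1 and 0 at day 0. Of 12 neuron markers 8 had reads, with a summed level of 0.0121 RPM at day 0 and 0.255 RPM in day 45 controls. All 4 that were tested were higher at day 45, against 61.9% of all genes, and 0 were higher under TMM or DESeq2. The part of neurons in these changes was not tested.

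Mitotic kinesins had the smallest ratio of day 45 to day 0 among the motor groups. The summed level of the 12 listed genes was 0.229 RPM at day 0, 0.517 RPM in day 45 controls and 0.201 RPM in day 90 controls, so the ratio to day 0 was 2.26 and then 0.875. Of 7 tested genes 2 were higher at day 45 (KIF15 and KIF23) and 0 at day 90, against 61.9% and 43.4% of all genes, and their median log2 change to day 45 was 0.95, against 2.77 for all genes. As a share of back-splice reads they held 0.162 to 0.213% at day 0, 0.067 to 0.0735% in day 45 controls and 0.0396 to 0.0467% in day 90 controls, and these ranges did not overlap. KIF15, which helps keep spindle poles apart, had 12, 11 and 2 reads at day 0, 25, 22 and 22 in day 45 controls, 24, 30 and 22 with IGF-1 at day 45, 9, 13 and 9 in day 90 controls and 10, 14 and 10 with IGF-1 at day 90. In reads, all day 45 libraries were above the others. The log2 change to day 45 was 1.502 ± 0.52 (adjusted p = 0.00816, or 0.0996 without day 0 replicate 3), with -0.66 under TMM and -0.995 under DESeq2, and to day 90 it was 0.22 (adjusted p = 0.758), with -1.33 under TMM and -1.62 under DESeq2.

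KIF23, the kinesin of the cytokinetic midzone, went from 2, 0 and 4 reads to 17, 12 and 11 in day 45 controls and 2, 3 and 3 in day 90 controls. Its difference between day 45 and day 90 did not pass the test (log2 change -2.42, adjusted p = 0.0665). KIF11, which pushes spindle poles apart, had 6, 4 and 10 reads at day 0, 8, 11 and 5 in day 45 controls and 1, 1 and 8 in day 90 controls, and its groups overlapped (log2 change 0.32 ± 0.66, adjusted p = 0.673, to day 45). Its change was -1.81 under TMM (adjusted p = 0.0235) and -2.16 under DESeq2 (adjusted p = 0.00158). KIF4A, which organises the midzone, had 3, 3 and 3 reads at day 0 and 0, 1 and 1 in day 45 controls, without overlap (log2 change -1.96 ± 1.19, adjusted p = 0.132). KIF14 and KIF18A showed log2 changes of 0.95 and 1.10 to day 45, neither past the threshold, with -1.21 and -1.01 under TMM. Genes that mark dividing cells were summed in the same way. The 16 proliferation markers summed to 0.231 RPM at day 0, 0.633 RPM in day 45 controls and 0.294 RPM in day 90 controls, 3 of 12 tested were higher at day 45 (61.9% of all genes), and their share was 0.178 to 0.218% at day 0 and 0.0808 to 0.0925% in day 45 controls. Their part in the levels of the mitotic kinesins was not tested.

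Among other kinesins, KIF2A, which depolymerises microtubules, had 6, 5 and 3 reads at day 0 and 13, 6 and 20 in day 45 controls (log2 change 1.49 ± 0.62, adjusted p = 0.0287, with -0.63 under TMM and -0.97 under DESeq2). KIF26B, a kinesin of cell adhesion, had no read at day 0, 0, 7 and 8 in day 45 controls and 7, 17 and 9 with IGF-1 at day 45, and was at least 5.15-fold higher in day 45 controls (adjusted p = 0.000577), although 1 of those libraries had none. Of the 13 listed genes 5 had reads and 3 were tested.

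**Figure D4:**
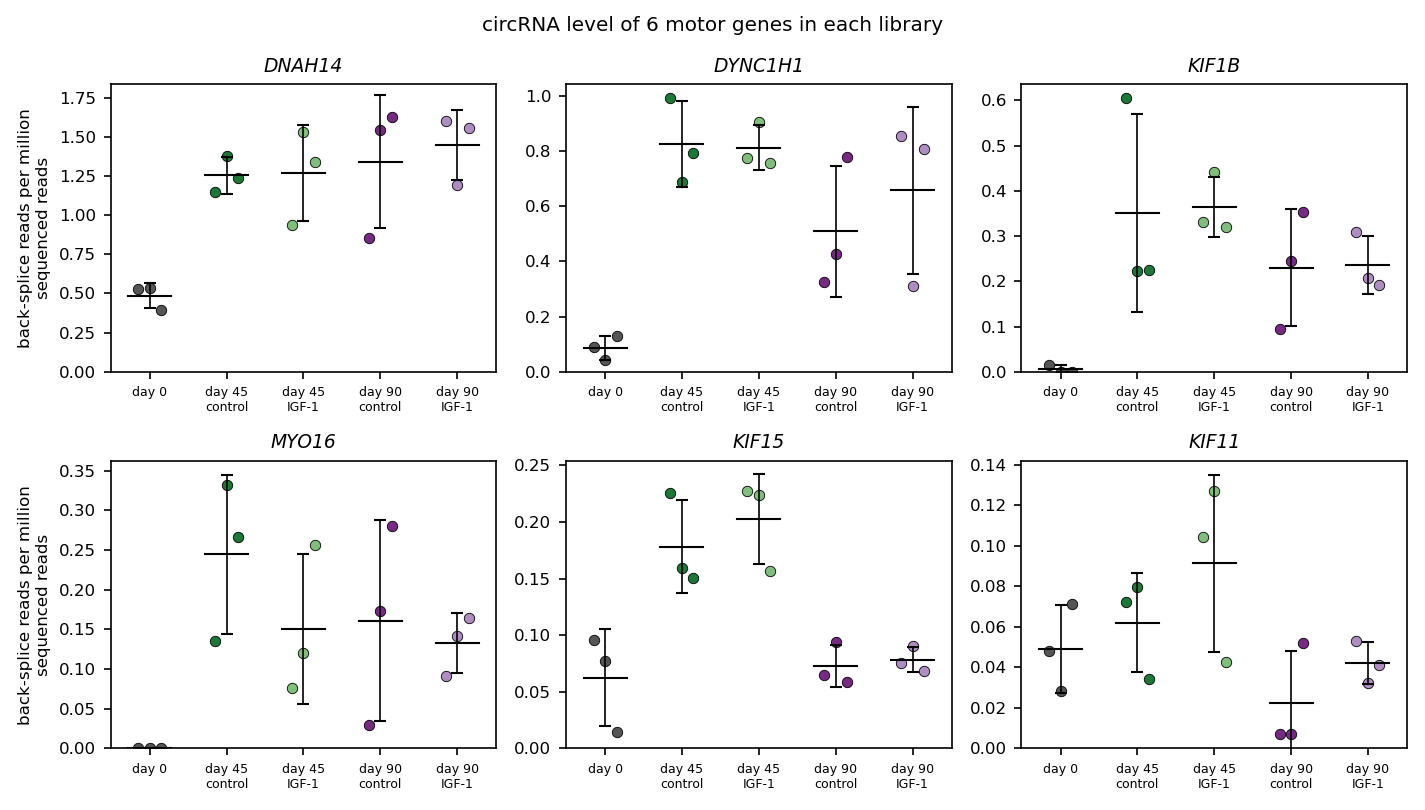
Summed circRNA level of DNAH14, DYNC1H1, KIF1B, MYO16, KIF15 and KIF11 in each library, in back-splice reads per 1000000 sequenced reads, with means and SD over 3 replicates. DNAH14 starts high at day 0, KIF1B and MYO16 start at or near 0, KIF15 is highest at day 45, and the KIF11 groups overlap.

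Unconventional myosins, the myosins outside muscle and cytokinesis, made up 2681 reads in 18 of 25 listed genes. Their summed level was 0.213 RPM at day 0 and 1.98 RPM in day 45 controls, a ratio of 9.33, and 9 of 14 tested genes were higher at day 45 and 10 at day 90, against 61.9% and 43.4% of all genes. Under TMM 1 and 2 of them were higher, and under DESeq2 1 and 1. MYO9A, a class IX myosin, had 10, 10 and 8 reads at day 0, 94, 66 and 70 in day 45 controls, 49, 63 and 52 with IGF-1 at day 45, 43, 54 and 62 in day 90 controls and 78, 74 and 42 with IGF-1 at day 90. All later libraries lay above the day 0 libraries, and the log2 change to day 45 was 3.10 ± 0.46 (adjusted p = 2.9e-10). Its paralogue MYO9B went from 4, 6 and 6 to 33, 45 and 37 reads (2.87 ± 0.52, adjusted p = 2.75e-07) and had 12, 19 and 34 in day 90 controls.

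The matching exon 2 circles of the pair were followed separately. That of MYO9A had 4, 6 and 2 reads at day 0, 24, 23 and 21 in day 45 controls and 13, 15 and 12 in day 90 controls, and was higher at both times (log2 changes 2.53 and 1.63, adjusted p = 0.000155 and 0.0368, the latter -0.06 under DESeq2). The day 90 call was lost without day 0 replicate 1 or 3 or without day 90 control replicate 2 (adjusted p = 0.0768, 0.158 and 0.0982). That of MYO9B had 2, 4 and 2, then 11, 16 and 18, then 1, 1 and 8 reads, and was higher at day 45 (2.47 ± 0.69, adjusted p = 0.00198) but not at day 90, where it overlapped day 0 (0.22, adjusted p = 0.863, with -1.03 under TMM and -1.62 under DESeq2). MYO9A circles of exons 2 to 3, from the same acceptor, had no day 0 read and 12, 11 and 9 in day 45 controls, at least 10.98-fold higher.

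MYO10, which carries cargo to the tips of filopodia, had 9, 2 and 11 reads at day 0, 41, 69 and 49 in day 45 controls, 25, 62 and 34 with IGF-1 at day 45, 32, 60 and 69 in day 90 controls and 65, 46 and 86 with IGF-1 at day 90. All later libraries exceeded day 0 (log2 change 2.86 ± 0.48 to day 45, adjusted p = 2.63e-08, and 2.75 ± 0.48 to day 90, adjusted p = 1.67e-07). MYO16, a myosin with ankyrin repeats found in brain, had no read in the 3 day 0 libraries, and 15, 46 and 39 in day 45 controls, 8, 16 and 36 with IGF-1 at day 45, 4, 24 and 43 in day 90 controls and 12, 22 and 24 with IGF-1 at day 90. It was at least 34.3-fold higher at day 45 and at least 22.4-fold higher at day 90, and was called under all 3 scalings. Its exon 2 circle had 10, 32 and 24 reads in day 45 controls, at least 22.6-fold higher.

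Class V myosins carry vesicles, and those with most reads were higher at day 45. MYO5A had 0, 1 and 2 reads at day 0 and 21, 10 and 18 in day 45 controls (ratio 16.8, counting interval 5.42 to 84.3, adjusted p = 1.2e-06), and MYO5B had 0, 0 and 2 and then 33, 6 and 2, so that replicate 1 held most of its reads and the groups overlapped (adjusted p = 6.67e-06). MYO6, the myosin that moves towards the minus end of actin, had 2, 0 and 2 and then 22, 7 and 11 reads (log2 change 3.31 ± 0.81, adjusted p = 0.000178). MYO3A and MYO3B, class III myosins that photoreceptors and hair cells express, had no read at day 0, and 0, 3 and 2 and 0, 1 and 2 in day 45 controls. In day 90 controls they had 0, 1 and 7 and 2, 4 and 2 reads, and both were called higher there (adjusted p = 0.0233 and 0.0289) at limits of at least 2.52-fold each. MYO1D and MYO1E showed log2 changes of 0.72 and 0.02 to day 45 and were not called.

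Class II myosin heavy chains, which form contractile filaments, were read almost only from the non-muscle form MYH10. It had 7, 3 and 1 reads at day 0, 29, 28 and 26 in day 45 controls, 12, 21 and 18 with IGF-1 at day 45, 8, 18 and 24 in day 90 controls and 18, 14 and 20 with IGF-1 at day 90, with every later library above day 0. The log2 change to day 45 was 2.92 ± 0.57 (adjusted p = 2.02e-06). Its circle of exons 5 to 7, from the P-loop exon, had 0, 0 and 1 reads at day 0, 14, 8 and 9 in day 45 controls and 0, 0 and 11 in day 90 controls. MYH9 had 33 reads in all (2.80 ± 1.32, adjusted p = 0.0544). Of 15 listed class II genes 6 had reads, 292 in all, and the cardiac forms MYH6 and MYH7 and the skeletal forms MYH1, MYH2 and MYH4 had none. Of 18 muscle genes 8 had reads, 109 in all, with a summed level of 0.0216 RPM at day 0 and 0.0588 RPM in day 45 controls.

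**Figure D5:**
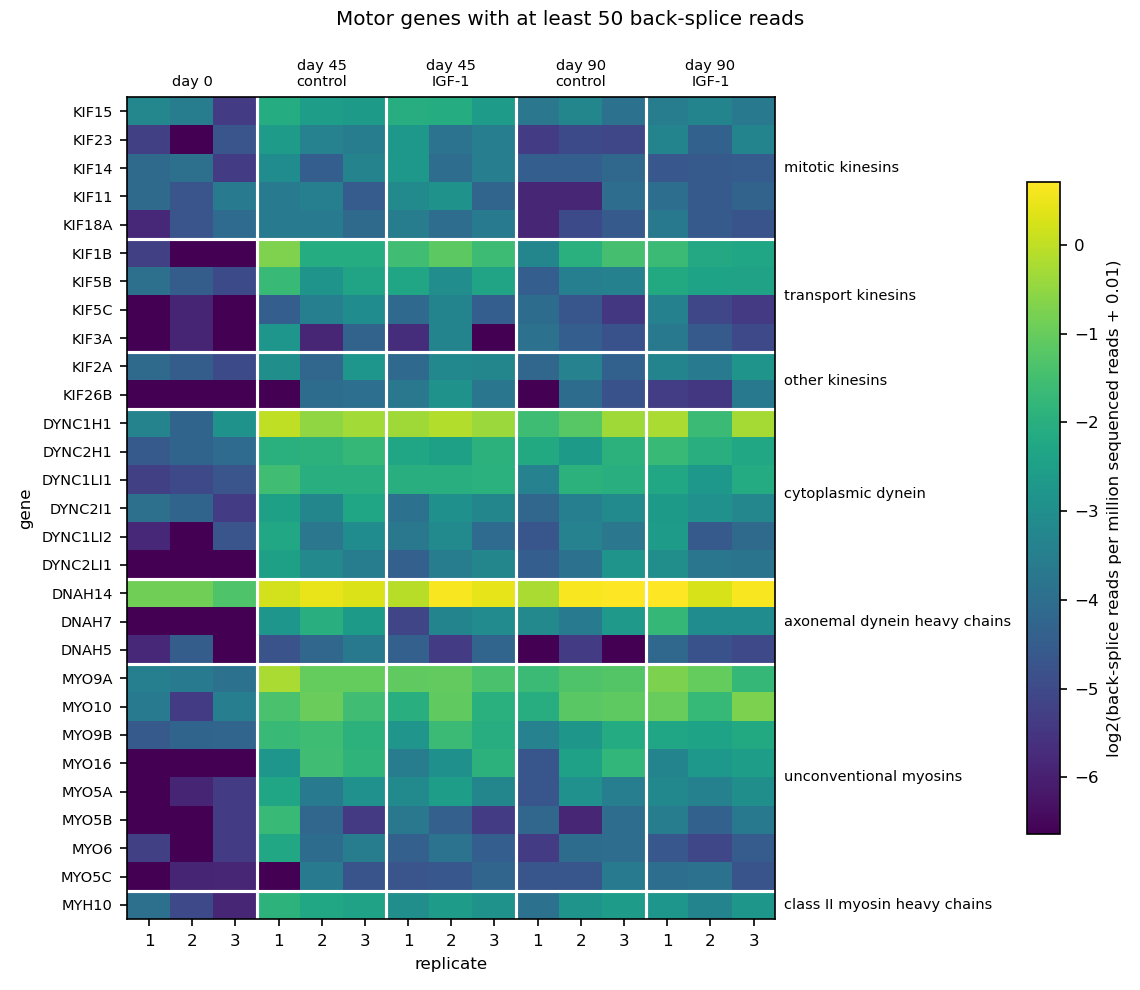
Level of the 29 motor genes with at least 50 back-splice reads in each library, as log2 of back-splice reads per 1000000 sequenced reads with 0.01 added, with genes grouped by role and libraries by group. Most genes are at or near the bottom of the scale at day 0, and DNAH14 is high in every library.

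Single motor circRNAs were tested in the same way among 12498 circRNAs. Of 140 motor circRNAs 51 were higher in day 45 controls and 0 lower, against 40.9% and 0.256% of all circRNAs tested, with a median log2 change of 3.18 against 2.87. They came from 21 of 38 genes. Of the 51, 30 had no read at day 0. By role, 14 of 22 tested cytoplasmic dynein circles were higher, 16 of 46 of unconventional myosins, 8 of 19 of transport kinesins, 7 of 21 of axonemal dyneins, 1 of 18 of mitotic kinesins, 3 of 8 of other kinesins and 2 of 5 of class II myosins. Under TMM 7 were higher and 0 lower, against 6.27% and 0.912% of all circRNAs, and under DESeq2 2 were higher and 2 lower, against 2.51% and 1.74%.

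At day 90 32 motor circRNAs were higher and 1 lower, against 21.7% and 0.328% of all circRNAs. Under TMM 5 were higher and 1 lower (5.9% and 1.04% of all), and under DESeq2 3 were higher and 1 lower (2.94% and 1.85%). The total of 33 called fell to 17 without day 0 replicate 2 or day 90 control replicate 3, and to 19 without day 0 replicate 1. The lower circle was KIF11 exons 15 to 17, with 2, 3 and 4 reads at day 0, 0, 9 and 3 in day 45 controls, 3, 6 and 0 with IGF-1 at day 45, 0, 0 and 0 in day 90 controls, and 1, 2 and 1 with IGF-1 at day 90. It was at least 3.17-fold lower in day 90 controls (adjusted p = 0.0213, and 0.00289 under TMM), and its groups at day 0 and day 45 overlapped. The call was lost without day 0 replicate 3 or day 90 control replicate 2 or 3 (adjusted p = 0.0593, 0.0622 and 0.0717). DYNC2LI1 exons 6 to 10 had no day 0 read, 13, 10 and 6 in day 45 controls and 4, 7 and 14 in day 90 controls, at least 9.95-fold and at least 7.89-fold higher. DYNC1LI1 exons 3 to 5 went from 2, 3 and 0 to 16, 14 and 12 reads (log2 change 3.04 ± 0.71, adjusted p = 0.000175), MYO10 exons 5 to 9 from 9, 1 and 8 to 31, 59 and 38 (2.82 ± 0.51, adjusted p = 9.69e-07), and MYO9A exons 4 to 8 from 2, 3 and 2 to 26, 16 and 18 (3.12 ± 0.65, adjusted p = 2.04e-05). DYNC2H1 exons 56 to 59 had 3, 6 and 2 and then 7, 15 and 12 reads (1.63 ± 0.66, adjusted p = 0.0374, with -0.08 under TMM and -0.67 under DESeq2), and leaving out day 0 replicate 1 or 3 or day 45 control replicate 2 or 3 lost this call (adjusted p from 0.0526 to 0.131), as did a replicate block (adjusted p = 0.0512) and no minimum count (adjusted p = 0.158). KIF5B exons 18 to 20 had 3, 2 and 2 and then 12, 5 and 15 reads (2.18 ± 0.72, adjusted p = 0.0101, with -0.11 under DESeq2).

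Between day 45 and day 90 controls no motor gene or circRNA passed the test, while 0.282% of all genes and 0.08% of all circRNAs did (edgeR). An unadjusted p under 0.05 was given for 10 of 47 genes and 15 of 140 circRNAs. The share of all features under this unadjusted p is not given, so these counts are not read as a result about motors. The smallest adjusted p-values among motor genes were those of KIF23 (log2 change -2.42, adjusted p = 0.0665) and KIF5B (-1.60, adjusted p = 0.128). TMM and DESeq2 called 0 motor genes and circRNAs as well, against 0.065% and 0.0217% of all genes and 0.056% and 0.016% of all circRNAs. Without day 90 control replicate 3, 2 motor circRNAs were called lower. The median log2 change was -0.65 for motor genes and -0.63 for all genes.

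IGF-1 gave no called change in motor circRNAs. At day 45 0 of 140 circRNAs and 0 of 47 genes passed, against 0.016% of all circRNAs and 0.0217% of all genes, and an unadjusted p under 0.05 was given for 5 and 5. At day 90 0 passed at either level, against 0.008% and 0.0217%, and 14 circRNAs and 3 genes had an unadjusted p under 0.05. The test of whether the effect of IGF-1 differed between day 90 and day 45 called 0 motor circRNAs and genes, against 0.0% of all circRNAs and 0.0217% of all genes, with an unadjusted p under 0.05 for 10 and 6. No share of all features stands beside these unadjusted counts, and nothing is drawn from them. TMM and DESeq2 called 0 in each, where TMM called 0.032% of all circRNAs at day 45. KIF5B illustrates the size of such differences, with 5, 11 and 13 reads in day 90 controls and 28, 28 and 26 with IGF-1, which do not overlap (log2 change 1.49, unadjusted edgeR p = 0.0028, adjusted p = 1.0). It was picked after its values were seen.

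Genes listed as partners of the motors were called higher at day 45 about as often as genes in general. The list also holds KIFC1, KIFC2, KIFC3 and CENPE, which are kinesins themselves but whose symbols fall outside the member rule. They stand in no kinesin group above. Of 44 listed partners, among them dynactin subunits, cargo adaptors and kinesin light chains, 30 had reads and 23 were tested, and 13 were higher at day 45 and 0 lower (4 higher under TMM and 3 under DESeq2), against 61.9% of all genes higher. Their median log2 change was 3.17, against 2.77 for all genes, with a summed level of 0.262 RPM at day 0 and 2.94 RPM in day 45 controls. HOOK3, a dynein adaptor, had the most reads of them, 1356, with 52 over the day 0 libraries and 395 over day 45 controls (log2 change 3.03, edgeR adjusted p = 2.37e-11, and 0.78 under TMM). KIF9-AS1, an antisense RNA whose symbol meets the rule, had 1 circRNA with 12 reads, no read at day 0, and no call. As in all 140 tested motor circRNAs, its flanking bases were AG and GT on the strand given for it, which follows from annotated exon ends. The strand of its reads was not checked, and KIF9-AS1 belongs to no role.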

How the data were processed

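Back-splice reads were counted in 15 ribodepleted total RNA libraries, 3 for each of 5 groups. The authors screened all reads of each library with PTESFinder version 1 against GENCODE 19 transcripts on hg19, guided by sequences of known back-splice junctions, and deposited raw counts per circRNA and library without pooling replicates. The 16 amplicon samples were not used here. Guided detection cannot find every junction, and linear reads were not used here, so a change in a circRNA was not set against its gene's expression.

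Members were assigned to genes by transcript in GENCODE 44 lifted to GRCh37, which held the transcripts of 48401 of 55371 circRNAs. The library letters a, b and c were read as replicates 1, 2 and 3. Library sizes were the read numbers the study gives, taken from its read table; the table does not tell day 90 control replicates 1 and 2 apart, so both were given their mean. Features with at least 10 summed counts were tested with edgeR 4.0.16 (glmQLFit and glmQLFTest, R 4.3.3) in 1 fit over all groups, with Benjamini-Hochberg adjustment over all 12498 circRNAs or 4616 genes and a threshold of 0.05. For summed levels, groups were compared by an exact two-sided permutation test (scipy 1.17.1). Against a group with no read, a fold is a lower bound from 3 counts over the group, and with 1 to 3 counts the ratio has an exact 95% counting interval. Exon structure and sequences were read with pysam 0.24.0.

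Results were recomputed with edgeR's TMM factors over back-splice reads, with DESeq2 1.42.0, and with other count minimums, a replicate block, other day 90 read numbers, Fisher's exact test, exon-end assignment and leaving out each library. The fit was tested on simulated data. For day 0 against day 45, it found 51% of 200 circRNAs changed 8-fold among 12498, and 66.5% of 200 genes among 4616. The changes were rises and falls in equal number. Among rises of features with many reads it found 92% of circRNAs and 100% of genes. Each feature was simulated around its mean over all libraries, so the low day 0 depth was not reproduced. These shares are therefore not the sensitivity of the real comparison.

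The genes named were the 12 with most reads, the 12 circRNAs with most reads, the 5 genes and 5 circRNAs with the largest rise to day 45 among those called whose day 45 control libraries all stood above day 0, and any circRNA called lower. Other members are given for their role and were picked after their values were seen. The motor genes and the lists were chosen with earlier results of these data known.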

Additional observations from a re-analysis of the deposited data

How the results depend on the processing

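The scaling changed most. TMM and DESeq2 scale to back-splice counts, which lowers the general rise from day 0. Called motor circRNAs were then 7 and 4 at day 45 and 6 and 4 at day 90, and called motor genes 9 and 8 at day 45 and 9 and 10 at day 90. A minimum of 50 counts, which tests fewer circRNAs, left 26 and 20 called at day 45 and day 90, and no minimum left 17 at day 90. Fisher's exact test on summed counts, which ignores the spread between replicates, called 10 between day 45 and day 90, 1 for IGF-1 at day 45 and 1 at day 90. Assigning circRNAs also by exon ends called 1 gene between day 45 and day 90. Leaving out 1 library at a time gave 42 to 53 called circRNAs at day 45, 17 to 38 at day 90 and 0 to 2 between them. For the other minimums, Fisher's test, exon ends and the leave-one-out fits, no share over all features is given. Their counts show only how the calls move. Without the DNAH14 circle of exons 2 to 8 the ratio of summed levels was 6.30 and the difference in share was 0.0129.

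Log2 changes that reversed, first for day 45 and TMM, were -0.56 and -1.25 for DNAH14 exons 2 to 8 and 2 to 7, -0.078 for DYNC2H1 exons 56 to 59, -1.22 for KIF11 exons 15 to 17, and -0.76 and -0.66 for the genes DNAH14 and KIF15. Under DESeq2 at day 45 they were -1.15, -0.47 and -1.85 for DNAH14 exons 2 to 8, 2 to 10 and 2 to 7, -0.67 for DYNC2H1 exons 56 to 59, -0.11 for KIF5B exons 18 to 20 and -1.83 for KIF11 exons 15 to 17. For the genes DNAH14, KIF5B and KIF15 they were -1.08, -0.057 and -0.995. At day 90 TMM gave -0.37 for DNAH14 exons 2 to 7, -0.69 for KIF5B exons 18 to 20, -1.03 for MYO9B exon 2, and -0.12, -0.72 and -1.33 for the genes DNAH14, KIF5B and KIF15. DESeq2 gave -0.39 and -0.88 for DNAH14 exons 2 to 8 and 2 to 7, -0.0595 for MYO9A exon 2, -0.35 for DYNC2H1 exons 56 to 59, -1.23 for KIF5B exons 18 to 20, -1.62 for MYO9B exon 2, and -0.40, -1.01 and -1.62 for the genes DNAH14, KIF5B and KIF15. Leaving out 1 library gave -0.92 to 0.92 for KIF11 exons 15 to 17 at day 45, -1.33 to 0.61 for MYO9B exon 2 at day 90 and -0.26 to 0.64 for the gene KIF15 at day 90.

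Libraries with the same replicate number were not taken as paired, but whether they are was not settled. Over 30 pairs with the same number correlations ran from -0.049 to 0.117, with 1 above 0.1. Over 60 pairs with other numbers they ran from -0.086 to 0.051. However, 12 of 15 libraries correlated best with their own number. For IGF-1 at day 45 and day 90, a replicate block called 0 motor circRNAs and genes. A replicate block called 47 of 140 motor circRNAs higher at day 45 and 30 at day 90, with 1 lower, and 27 and 22 of 47 motor genes. Over all features the block called 4391 and 2420 of 12498 circRNAs higher, and 2708 and 1899 of 4616 genes. At day 45 the block lost, among others, the calls of DYNC2H1 exons 56 to 59 (adjusted p = 0.0512) and the gene DNAH10 (adjusted p = 0.0602). The day 0 libraries held 168 to 177 motor reads each, which limits what can be seen of single circles.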
